A study of Mus musculus with 9 samples.

Results

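Chromatin accessibility was compared between an early and a late stage of differentiation of female mouse embryonic stem cells (mESCs), over 8 of the 9 NOMe-seq libraries of the series. The early stage comprised the 4 libraries of days 4 and 5 and the late stage the 4 libraries of days 6 and 7, as the sample titles give them. Each stage held 2 libraries of the arm labelled Nons, which received a non-silencing hairpin, and 2 of the arm labelled Smarcc16, which received a hairpin against Smarcc1. The 9th library was from undifferentiated cells at day 0 and entered no test. All cells were of the FVB/CAST F1 background and were grown in 2i. Those of the 8 tested libraries were then weaned into DME HiHi medium, transduced on day 2 and put under puromycin on day 3. Both stages thus carry a hairpin and the selection, and the day 0 library belongs to neither arm. There was 1 library for each arm and day. Days of one stage are points of a time course and not replicates, so the spread within a stage holds the day-to-day variation, and nothing in the labels says whether the days came from separate cultures.

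In NOMe-seq, fixed nuclei are exposed to a methyltransferase that marks cytosines in GpC dinucleotides, which nucleosomes and bound proteins shield. Bisulfite sequencing then reads the marks, and a higher percent GpC methylation stands for more open chromatin. Female mESCs carry 2 active X chromosomes and silence one of them as they leave pluripotency, which starts with coating of that chromosome by the non-coding RNA Xist. The product of Smarcc1 is a core part of the BAF complex, which slides and evicts nucleosomes. The NOMe-seq assay does not measure RNA, so marker genes of a cell type are described here by the accessibility at their 5′ ends, which is not expression, and the labelled cell type cannot be checked by the presence or absence of marker RNA.

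Levels of whole libraries could not be compared directly. The autosomal median ran from 11.1% to 21.2% in the early and from 6.41% to 11.9% in the late libraries. A pair of further measures differed between the stages without overlap. The share of autosomal windows at 0% was 0.0291% to 0.334% early and 0.572% to 5.35% late, and the mean over the 4 mitochondrial windows, DNA that holds no nucleosomes, was 81.6% to 86.8% early and 73.6% to 81.5% late. Results without windows at 0% or 100% are given below for the bins, the X chromosome and the promoters as a class, and the part of the mitochondrial level was not tested. Each value was therefore converted to its percentile rank among the autosomal windows, promoter windows or 1 Mb bins of the same library, so a change is relative to the other autosomal features and is given in percentile points, late minus early. The read depth behind each window is unknown.

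The sequences below show the GpC dinucleotides before the start sites of 4 genes described further on, Dyrk1a, Pou5f1, Xist and Eomes. Each is the 250 bases before the RefSeq start site in GRCm38.p6, with GpC dinucleotides in capitals. Dyrk1a (chr16:94569956-94570205, plus strand) is shown for its large stage difference in rank.
Dyrk1a: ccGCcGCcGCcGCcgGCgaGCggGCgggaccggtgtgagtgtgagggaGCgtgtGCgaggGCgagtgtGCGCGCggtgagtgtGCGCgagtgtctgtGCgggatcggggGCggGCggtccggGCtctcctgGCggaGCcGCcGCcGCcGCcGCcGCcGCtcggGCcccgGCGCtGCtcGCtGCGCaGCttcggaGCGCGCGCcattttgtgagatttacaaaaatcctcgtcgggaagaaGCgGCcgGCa
Pou5f1 (chr17:35505782-35506031, plus strand) is shown as a gene of pluripotent cells whose stages did not overlap.
Pou5f1: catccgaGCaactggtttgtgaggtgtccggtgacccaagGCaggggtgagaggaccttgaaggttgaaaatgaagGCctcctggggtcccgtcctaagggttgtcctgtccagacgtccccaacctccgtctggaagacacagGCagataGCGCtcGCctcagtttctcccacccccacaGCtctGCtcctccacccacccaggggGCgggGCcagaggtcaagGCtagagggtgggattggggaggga
Xist (chrX:103483234-103483483, minus strand) encodes the RNA that starts X inactivation.
Xist: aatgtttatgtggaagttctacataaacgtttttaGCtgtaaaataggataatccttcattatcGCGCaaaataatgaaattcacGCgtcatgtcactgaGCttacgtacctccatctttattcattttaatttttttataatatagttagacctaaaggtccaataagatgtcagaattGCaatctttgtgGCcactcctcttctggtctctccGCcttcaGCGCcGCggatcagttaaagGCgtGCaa
Eomes (chr9:118477939-118478188, plus strand) marks mesendoderm.
Eomes: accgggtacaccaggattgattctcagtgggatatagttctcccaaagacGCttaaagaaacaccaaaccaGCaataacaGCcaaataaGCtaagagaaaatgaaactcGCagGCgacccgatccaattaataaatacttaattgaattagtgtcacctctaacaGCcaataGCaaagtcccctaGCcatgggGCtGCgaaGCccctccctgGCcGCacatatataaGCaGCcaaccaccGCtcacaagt
The search was for the letters GC, which read the same on both strands. The 250 bases held 43 GpC dinucleotides at Dyrk1a, 12 at Pou5f1, 13 at Xist and 17 at Eomes, against a median of 16 over the 32851 promoter stretches of the table. Of those stretches, 1.8% held at least as many as Dyrk1a, 73.7% as many as Pou5f1, 68.3% as many as Xist and 47.9% as many as Eomes. The number of GpC dinucleotides before the start site thus differed widely between these genes. Every GpC was counted here, whereas the study kept only informative GpC positions, so not all counted positions need have been read.

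The first comparison asked which megabase regions moved between the stages. Of 2548 bins of 1 Mb with at least 100 windows, 10 fell from early to late (0.392% of bins) and 3 rose (0.118%), by limma with arm as a block and a Benjamini-Hochberg adjusted p under 0.05. The 10 that fell included 2 on the X chromosome, 3 without any protein-coding 5′ end, and bins that hold the vomeronasal receptors Vmn2r98 to Vmn2r103, the Esp genes for exocrine gland-secreted peptides, or Uqcrb, Mterf3 and Ptdss1. The 3 that rose held Hes6, Per2 and Twist2 on chromosome 1, Rsad2 and Cmpk2 on chromosome 12, and the 5′ end of Lpp on chromosome 16. All adjusted p-values lay close to the threshold, between 0.0477 and 0.0491. No call was made when either arm or the day 7 libraries were left out, when bins were ranked after a fit to GC content, or when windows at 0% or 100% were left out of the bin means. The sign of all 13 changes was the same in each of the 19 alternatives that kept the same bins. Where an alternative only left out libraries, this follows from the lack of overlap between the stages and is no further support.

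The steepest falls were on the X chromosome. In the bin at chrX:127000001-128000000, whose named protein-coding gene is the claudin family member Cldn34c4, the rank was 77.0 at day 4 and 57.1 at day 5 in Nons and 74.9 and 93.2 in Smarcc16. At days 6 and 7 it was 26.1 and 11.9 in Nons and 4.1 and 3.1 in Smarcc16. The stages did not overlap, and the change was -64.2 (SE 12.8, n = 4 libraries a stage, limma adjusted p = 0.0477). The deposited means of that bin were 15.0%, 22.2%, 12.2% and 22.1% in the early libraries and 10.7%, 6.42%, 11.3% and 6.54% in the late libraries, with Nons before Smarcc16 and the earlier day first. The other X bin, at chrX:89000001-90000000, holds Pet2. Its early ranks were 76.1 and 86.1 in Nons and 85.4 and 74.3 in Smarcc16, and its late ranks 4.1 and 1.9 in Nons and 18.3 and 47.0 in Smarcc16. All 4 late libraries were below the 4 early ones, with day 7 of Smarcc16 the highest of them, and the change was -62.6 (SE 13.3, adjusted p = 0.0491).

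Among the autosomal bins that fell, the bin with the Vmn2r genes (chr17:19000001-20000000) had the largest moderated t. Vmn2r genes encode pheromone receptors of the vomeronasal organ. Its ranks were 52.2 and 52.1 in Nons and 61.9 and 40.1 in Smarcc16 at days 4 and 5. They were 6.7 and 1.4 in Nons and 10.2 and 1.7 in Smarcc16 at days 6 and 7. The bin thus moved from the middle of the autosomal range to ranks of 10.2 or less in both arms, with a change of -46.6 (SE 8.8, adjusted p = 0.0477). The Esp bin (chr17:39000001-40000000) went from ranks of 60.2, 27.8, 94.0 and 81.8 to 0.5, 4.3, 11.9 and 1.5. These 8 ranks are in the order Nons, then Smarcc16, each with the earlier day first, which is the order used for all ranks below. The early libraries of that bin were far apart, with day 5 of Nons the lowest, and the late ones close together (change -61.4, SE 12.1, adjusted p = 0.0477).

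In the bin at chr19:19000001-20000000, which holds the 5′ end of Rorb, a nuclear receptor gene of neural tissues, the ranks were 71, 44.1, 67.4 and 67.2 early and 6.4, 13.1, 10.2 and 4.1 late (change -54.0, SE 10.7, adjusted p = 0.0477). The bin at chr9:36000001-37000000 holds Chek1, the checkpoint kinase gene, and Stt3a, Ei24, Fez1 and Acrv1. It was among the most even of the bins that fell, at 58.0, 45.8, 54.5 and 55.2 early and 4.0, 3.8, 7.1 and 18.7 late (change -45, SE 9.2, adjusted p = 0.0477). The bin at chr13:66000001-67000000 differed from the others by its high starting point. It holds 7 protein-coding 5′ ends, those of Gm10324, Gm10772, 2410141K09Rik, Gm10767, Uqcrb, Mterf3 and Ptdss1. Uqcrb encodes a subunit of respiratory complex III, Mterf3 acts in mitochondrial gene expression, and Ptdss1 encodes a phosphatidylserine synthase. The bin adjoins chr13:67000001-68000000, which had the most zinc-finger gene starts with a Zfp symbol (23). Early ranks of the Uqcrb bin were 99.5, 94.3, 99.7 and 98.8, near the top of all autosomal bins. The late ranks were 34.1, 42.2, 80.4 and 23.5, with day 6 of Smarcc16 the highest (change -53.0, SE 11, adjusted p = 0.0477). In 3 bins with no protein-coding 5′ end the changes were -58.1 (chr3:43000001-44000000, SE 11.9), -52.0 (chr12:96000001-97000000, SE 10.8) and -33.1 (chr12:6000001-7000000, SE 6.6), each with an adjusted p of 0.0477 and without overlap between the stages.

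The bins that rose lay low among the autosomal bins at the early stage. In the bin at chr1:91000001-92000000 the early ranks were 11.5, 11.8, 3.3 and 6.0 and the late ranks 63.6, 59.6, 46.8 and 73.9 (change 52.8, SE 10.4, adjusted p = 0.0477). It holds 13 protein-coding 5′ ends, among them Hes6, a bHLH gene of the Hes family, Per2 of the circadian clock and Twist2, a bHLH gene of mesenchyme. The bin at chr12:26000001-27000000 holds the interferon-inducible genes Rsad2 and Cmpk2 and the ubiquitin ligase gene Rnf144a. It was among the lowest of the autosomal bins early, at 1.7, 1.7, 2.5 and 1.8, and lay at 26.1, 41.8, 25.8 and 48.5 late (change 33.6, SE 6.9, adjusted p = 0.0477). The bin at chr16:24000001-25000000 holds the 5′ end of Lpp, which encodes a focal adhesion protein. Its early ranks were 12.9, 40.1, 9.0 and 9.4 and its late ranks 80.0, 94.2, 58.6 and 82.0 (change 60.9, SE 12.9, adjusted p = 0.0491), so day 5 of Nons was the highest early library but still below all late ones.

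**Figure D1:**
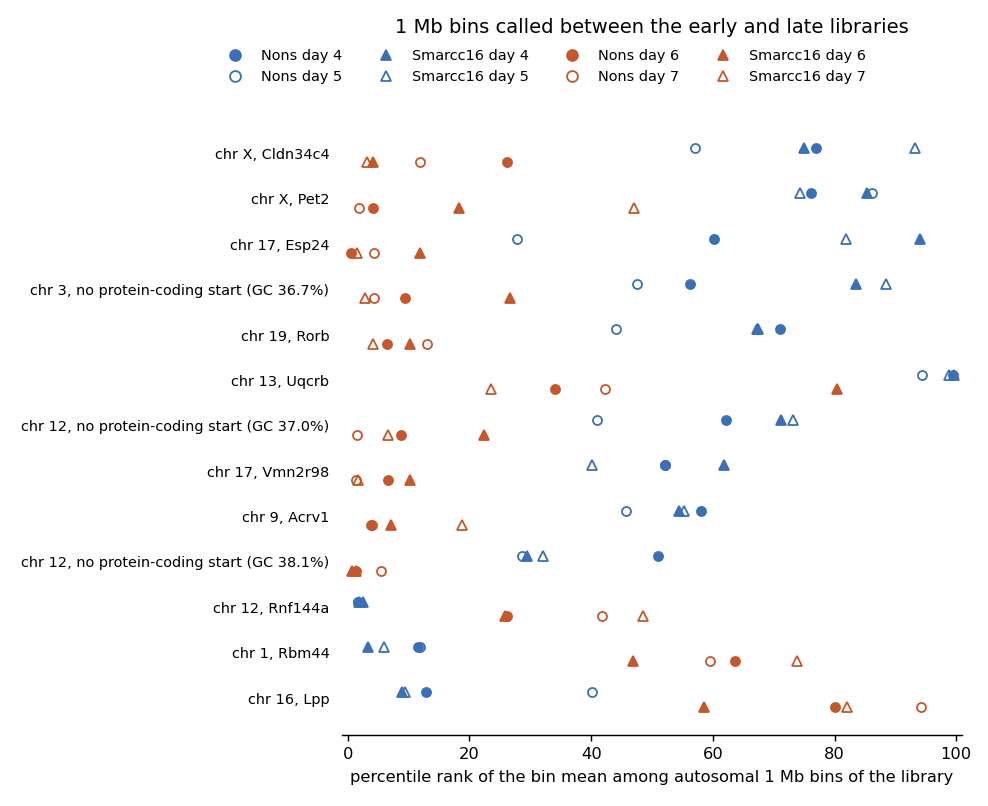
Percentile rank of the mean GpC methylation of the 13 called 1 Mb bins among the autosomal bins of each library, named by chromosome and the first named protein-coding gene that starts in them. Early libraries are blue and late libraries orange, circles are Nons, triangles Smarcc16, and open symbols are days 5 and 7. The upper 10 bins fell and the lower 3 rose, and in every bin the 4 late libraries lie on one side of the 4 early ones.

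Over all 2548 bins, the called ones included, 148 bins (5.81%) had all late libraries below all early ones and 127 bins (4.98%) had all late libraries above them, and 520 bins had an unadjusted p under 0.05. The change was related to base composition. Over the 2395 autosomal bins, which share libraries and overlap in composition, the Spearman correlation of the change was 0.45 with GC content, 0.49 with the number of windows in the bin, 0.19 with the number of protein-coding 5′ ends and -0.05 with the mean percent over the 8 libraries. The autosomal bins were divided by GC content into 5 classes of 479 bins. In the class with the lowest GC content (under 38.8%), 399 of 479 bins had a lower late rank and 6 fell, against 0.392% of all bins. Without overlap, 57 (11.9%) were lower and 2 (0.418%) higher. In the class with the highest GC content (over 45.5%), 329 of 479 had a higher late rank. Only 1 of the 479 rose, against 0.118% of all bins. Without overlap, 8 (1.67%) were lower and 42 (8.77%) higher. The median change went in order through the 5 classes, from -14.9 over -1.9, 2.6 and 4.1 to 6.3, against 0.0 over all autosomal bins. Without day 7 the medians of the GC-poorest and GC-richest classes were -6.82 and 1.91, with 303 and 199 of 479 bins lower.

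The contrast between GC-rich and GC-poor bins was widest at day 7. The median rank of the GC-richest class minus that of the GC-poorest class was 12.5, 24.3, 16.1 and -11.1 in the early libraries and 14.4, 44.7, 28.6 and 60.1 in the late libraries. The 2 day 7 libraries were the highest, while day 6 of Nons lay within the early range. The mean difference between the stages was 26.5 percentile points and did not pass an exact two-sided permutation test of the stage labels within arm (p = 0.111). That test has 36 arrangements and cannot go below 0.0556 here. Without the day 7 libraries the difference was 11.02, and with days 4 and 6 alone it was 7.14. The spread between autosomal bins, as the SD divided by the mean, was 0.0492, 0.0465, 0.0615 and 0.0425 early and 0.0623, 0.0728, 0.0568 and 0.0933 late, a difference of 0.0214 (exact p = 0.111) with overlap between the stages. It was 0.0123 without day 7 of Smarcc16 and 0.0042 with days 4 and 6 alone.

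**Figure D2:**
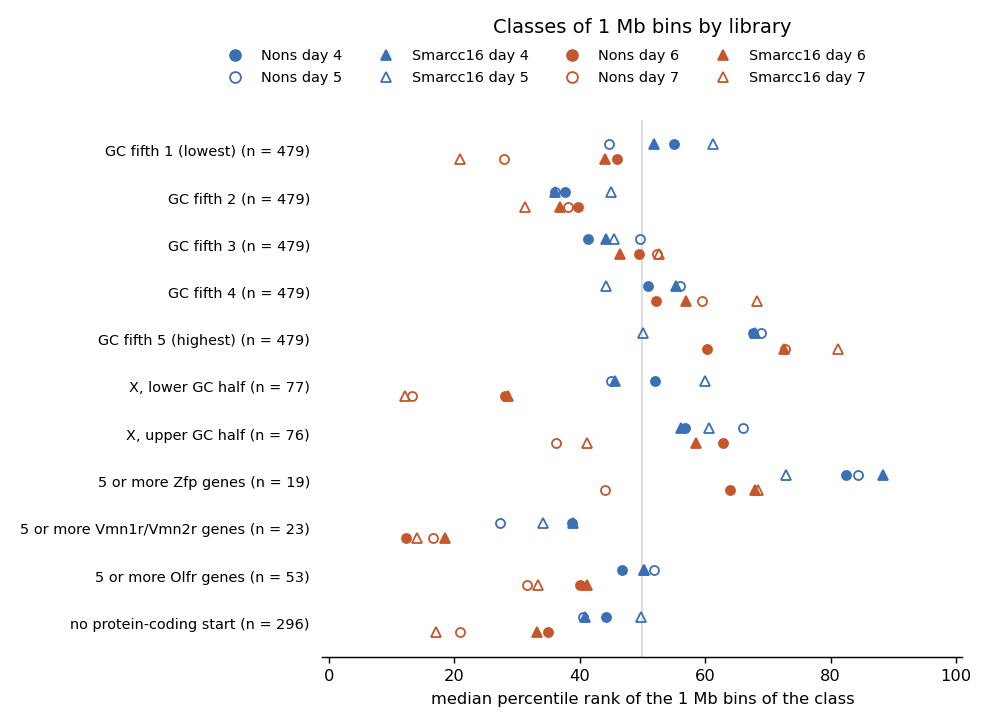
Median percentile rank of classes of 1 Mb bins in each library, with symbols as in the plot of called bins and the number of bins in parentheses. GC-poor bins lie lower and GC-rich bins higher in the day 7 libraries. The Zfp, vomeronasal, olfactory, X lower GC and no protein-coding start classes lie lower in all 4 late libraries than in any early one.

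The X chromosome was set against the autosomes in the same libraries, since it is the chromosome that is silenced during this period. The median window rank of the X, among autosomal windows, was 50.7 and 50.5 in Nons and 50.7 and 51.6 in Smarcc16 at the early days, and 49.4 and 45.7 in Nons and 49.4 and 45.6 in Smarcc16 at the late days. The means were 50.9 ± 0.504 (SD, n = 4) and 47.5 ± 2.17 (SD, n = 4), a difference of -3.40 percentile points (exact permutation p = 0.0556, the smallest the test can give). All late libraries lay below all early ones, also when libraries were centred or scaled as log2 ratios, and when windows at 0% or 100% were left out (-2.98). Most of the difference came with day 7, and it was -1.52 without the 2 day 7 libraries (exact permutation p = 0.111). The changes of the 19 autosomes, as the mean of the late minus the mean of the early chromosome medians, lay between -1.03 on chromosome 19 and 1.01 on chromosome 2, so that the X had the lowest of the 20 values.

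**Figure D3:**
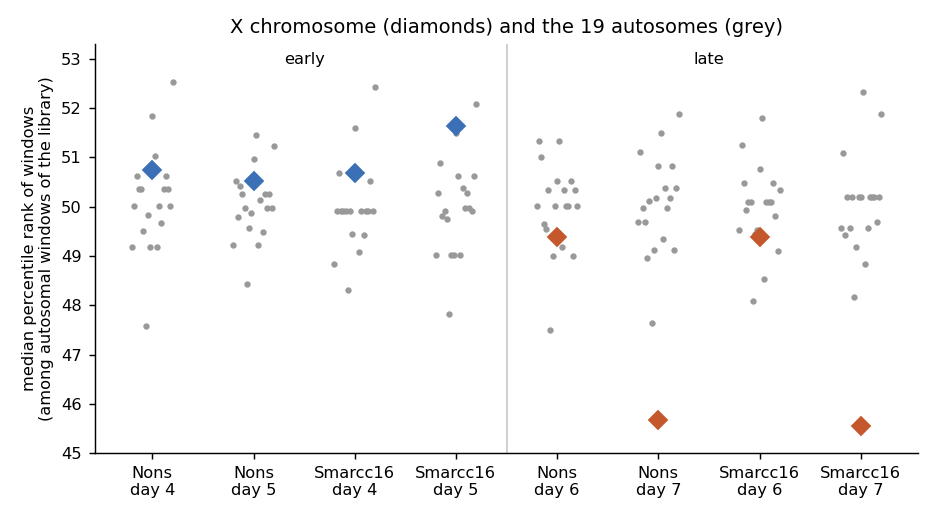
Median percentile rank of the windows of the X chromosome (diamonds) and of each of the 19 autosomes (grey points) among all autosomal windows, by library. The X lies within the autosomes in the 4 early libraries and at day 6, and below them at day 7.

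In bins, the X difference was spread along the chromosome. Of 153 X bins, 129 had a lower late rank and 24 a higher one. In 26 (17.0%) all late libraries lay below all early ones, against 5.81% over all bins. None had them above, against 4.98% over all bins. In the GC-poorest class of autosomal bins, 57 of 479 (11.9%) had them below and 2 (0.418%) above. The median change of the X bins was -15.5, against 0.0 for all autosomal bins and -14.9 for that GC-poorest class. The median rank of the X bins was 52.2, 55.9, 47.3 and 59.9 in the early libraries and 42.2, 24.8, 41.9 and 25.1 in the late libraries. X bins are poorer in GC than autosomal bins, with a median GC content of 39.2% against 42.1%, and GC content and the change were correlated along the X as well (Spearman 0.51 over 153 bins). In the 77 X bins of lower GC content the median ranks were 52.0, 45, 45.7 and 59.9 early and 28.1, 13.3, 28.6 and 12.2 late, and in the other 76 they were 56.8, 66.1, 56.1 and 60.6 early and 62.8, 36.2, 58.5 and 41.1 late. The median rank of the GC-poorer X bins therefore did not overlap between the stages. That of the GC-richer ones did, with day 6 inside the early range. As single bins, 20 of the 77 (26%) and 6 of the 76 (7.89%) had all late libraries below all early ones. The GC-poorest class of autosomal bins went from 55.1, 44.7, 51.8 and 61.2 to 45.9, 28.0, 44.1 and 20.9, with overlap between day 6 of Nons and day 5 of Nons. Measured as the median X bin rank of each library, the difference between the stages was -20.3 before and -16.1 after a quadratic fit to GC content in each library, in both cases without overlap (exact permutation p = 0.0556, the smallest possible). The median change of single X bins went from -15.5 to -9.72 after that fit, with 117 of 153 lower, and to -9.41 without day 7, with 102 of 153 lower.

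**Figure D4:**
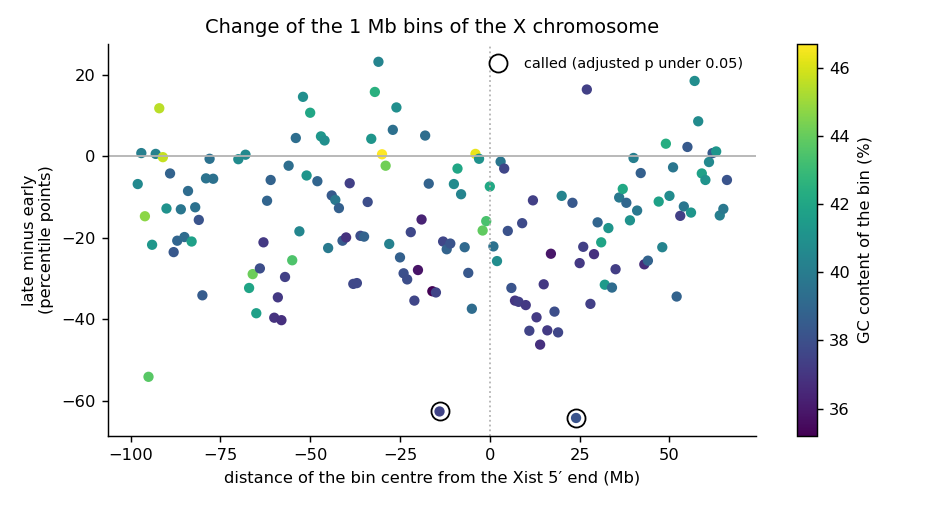
Change of each of the 153 X bins, late minus early in percentile points, against the distance of the bin centre from the 5′ end of Xist in Mb, coloured by GC content. Most bins lie below 0 on both sides of Xist, and the 2 circled bins, which fell, lie at -14.0 and 24.0 Mb.

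Distance from Xist was only weakly related to the change (Spearman 0.25 over the same 153 bins, given as a description of neighbouring bins from shared libraries).

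Groups of bins with clustered gene families also lay lower at the late stage. Zfp genes encode zinc-finger proteins, most of which bind and repress transposable elements, and they sit in dense clusters. Of 19 bins with at least 5 Zfp gene starts, 16 had a lower late rank, 4 of them (21.1%) without overlap against 5.81% of all bins, and none passed the test. Their median rank was 82.5, 84.3, 88.4 and 72.9 early and 64.0, 44.0, 68.0 and 68.4 late, so that the late values were lower in all libraries but remained above the autosomal middle in 3 of 4. The median change was -18.4, -12.8 without the day 7 libraries and -28.4 after the GC fit. The median GC content of the class was 45%, against 42.1% over autosomal bins, and the cause of the change was not tested. In the bin with the most Zfp genes (23, chr13:67000001-68000000) the mean rank was 94.9 early and 76.5 late (change -18.4, adjusted p = 0.212), and in the bin with 12 (chr7:24000001-25000000) it was 93.5 and 65.5 without overlap (change -28.0, adjusted p = 0.105). Bins with at least 5 vomeronasal receptor genes had median ranks of 38.8, 27.3, 38.9 and 34.2 early and 12.3, 16.6, 18.5 and 14.1 late. Of these 23 bins, 20 had a lower late rank and 1 fell, against 0.392% of all bins. All late libraries were below all early ones in 5 (21.7%) and above them in 1 (4.35%), against 5.81% and 4.98% of all bins. Bins with at least 5 olfactory receptor genes went from 46.7, 51.8, 50.3 and 50.2 to 40.1, 31.6, 41.2 and 33.4, with 42 of 53 lower and none called. Only 2 of the 53 (3.77%) had all late libraries below all early ones and 1 (1.89%) above, which is under the shares of all bins. In the 296 autosomal bins with no protein-coding 5′ end, 228 had a lower late rank and 3 fell, against 0.392% of all bins, with a median change of -13.1. Without overlap, 41 (13.9%) were lower and 6 (2.03%) higher. That class is GC-poor, with a median GC content of 37.7%, and after the GC fit 173 of 296 were lower, with a median change of -2.37. The receptor and zinc-finger families hold near-identical copies, and how reads that fit several copies were treated bears on their values and was not tested. The families were chosen for description after bin values had been seen.

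The next comparison asked about single promoters. No window passed the test, neither among all 830230 windows (0% called, smallest adjusted p 0.967) nor among the 30707 promoter windows, each with at least 1 protein-coding or lncRNA 5′ end (0% called, smallest adjusted p 0.851, limma). An unadjusted p under 0.05 was reached by 41277 windows and 1775 promoter windows. Of the promoter windows, 806 (2.62%) were higher and 969 (3.16%) lower at the late stage, and 518 (1.69%) had all late libraries above and 491 (1.6%) all late libraries below the early ones. The promoters named below are thus a description of the most separated values.

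Among promoters with all late libraries below the early ones, the largest moderated t for a gene outside the receptor families belonged to Dyrk1a, which encodes a dual-specificity kinase. Its window (chr16:94569618-94571426) covers untranslated exon sequence over 35.3% of its length, intron over 43.1% and upstream sequence over 21.7%. The ranks among promoter windows were 85.7, 85.0, 75.3 and 92.3 early and 25.2, 1.2, 2.8 and 18.9 late (change -72.6, SE 19.7, adjusted p = 0.851). In deposited percent these were 28.2%, 41.3%, 19.4% and 41.5%, then 8.33%, 0%, 3.51% and 4.0%. The window of Npas3, a neural bHLH-PAS transcription factor gene, went from 96.0, 96.2, 99.3 and 66.9 to 6.4, 45.1, 3.5 and 16.9. Klf3, a Krüppel-like factor gene, had early ranks of 99.5, 94.0, 99.9 and 99.1 and late ranks of 0.8, 81.0, 2.2 and 71.4, so that its day 6 values were near 0 in both arms and its day 7 values were not. The others of this group were the chromatin genes Brpf3 and Brwd3, the receptor gene S1pr1, the endosomal adaptor gene Appl1, BC005624 with Usp20, and the receptors Olfr1506 and Vmn1r115. Their changes lay between -65.7 and -55.0, with adjusted p-values of 0.851. The Olfr1506 window was 55289 bp long, against a median of 2809 bp, and 92.2% of it lies outside the gene.

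In the other direction, the promoter of Stac, an adaptor gene of excitable cells, had ranks of 27.6, 32.0, 4.0 and 2.9 early and 90.7, 66.1, 77.7 and 95.2 late (change 65.8, SE 19.8, adjusted p = 0.851). Igfbp3, which encodes an IGF-binding protein, had ranks of 44.6, 78.5, 19.7 and 29.8 early and 97.6, 99.0, 88.8 and 96.6 late, so that all late values lay in the top of the promoters. Stmn4, a stathmin gene of neurons, stood at 17.8, 5.4, 20.8 and 3.0 early and 77.7, 62.5, 74.5 and 71.8 late. Gjd3, Arl10, Tmem136, Crisp4, Eddm3b, Olfr853 and Olfr437 completed the group, with changes between 48.8 and 64.3 and adjusted p-values of 0.851.

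Promoters as a class stood out from other windows in all libraries, and by rank they stood out less at the late stage. The median rank of autosomal promoter windows among all autosomal windows was 72.6, 74.2, 68.1 and 69.6 early and 67.1, 65.5, 68.0 and 62.9 late. The means were 71.1 ± 2.78 (SD, n = 4) and 65.9 ± 2.26 (SD, n = 4), a difference of -5.24 (exact permutation p = 0.0556, the smallest possible), but the gap between the lowest early and the highest late library was small. The direction depended on the scale. As a log2 ratio to the autosomal median the difference was 0.0079 with overlap (exact permutation p = 0.556), and in percentage points above that median it was -1.80 (exact permutation p = 0.111). Without windows at 0% or 100% the rank difference was -4.94, again without overlap (exact permutation p = 0.0556). The mitochondrial level, given above, differed between the stages as well, and its part in the lower rank was not tested. Windows centred within 1 kb of a protein-coding 5′ end had mean ranks of 72.5, 74.2, 68.5 and 70.2 early and 67.6, 66.4, 68.8 and 63.8 late, and at 2.5 to 5 kb downstream the means were between 50.4 and 52.5 in all 8 libraries.

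**Figure D5:**
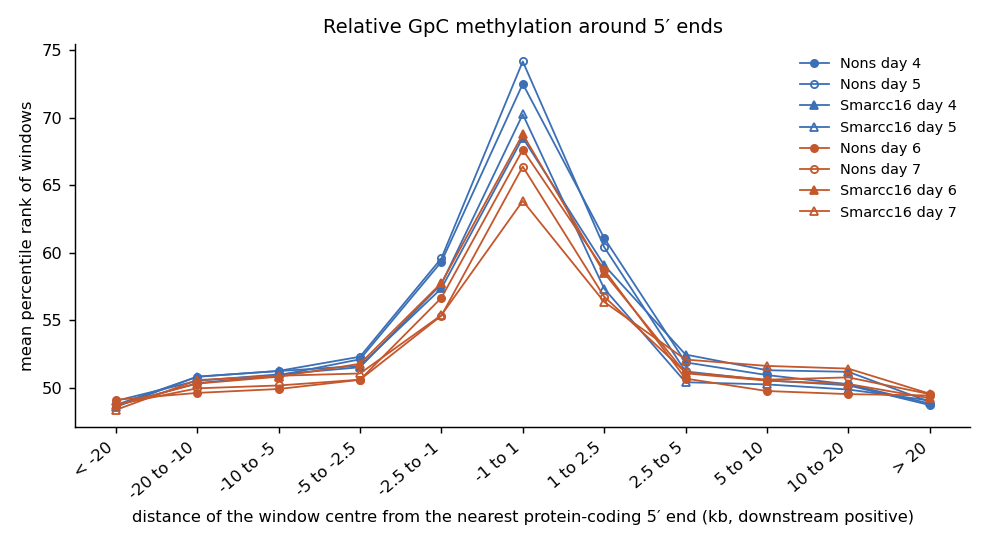
Mean percentile rank of autosomal windows by the distance of the window centre from the nearest protein-coding 5′ end, downstream positive, for each library. The peak within 1 kb was highest at days 4 and 5 of Nons and lowest at day 7 of Smarcc16, and the libraries came together beyond 2.5 kb.

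The genes of X inactivation were looked at next. The window of the Xist 5′ end (chrX:103482394-103485425), which covers Xist exon sequence over 28.4% and sequence upstream of Xist over 71.6%, had ranks of 75.7, 78.3, 77.5 and 73.8 early. The late ranks were 18.1, 84.3, 9.2 and 7.7. The early libraries were close together, and 3 of the 4 late ones were far below them while day 7 of Nons was above (change -46.5, SE 20.2, unadjusted p = 0.0211, adjusted p = 0.851). Tsix, the antisense partner of Xist, had ranks of 18.2, 77.1, 86.8 and 91.2 early and 6.6, 67.7, 6.2 and 42.6 late (change -37.6, adjusted p = 0.851), with the wide spread of single windows. A window gives the accessibility of DNA and not a transcript, so it does not tell Xist from an antisense transcript. Hprt, an X-linked housekeeping gene of purine salvage, had ranks of 74.6, 85.2, 95 and 99.6 early and 7.1, 73.8, 53.8 and 32.0 late, without overlap (change -46.9, SE 18.5, adjusted p = 0.851). Rlim, which encodes an activator of Xist, had a late minus early change of -25.5 (SE 12.3), which came from day 7 (50 and 28.7) and turned to 2.46 with days 4 and 6 alone. In the list of 17 windows of genes of X inactivation, 2 (11.8%) were lower and 0 higher at an unadjusted p under 0.05, against 3.16% and 2.62% of all promoter windows, with a median change of -9.04 against 0.05 over all promoters. Without day 7 the list had 4 lower (23.5%) and 0 higher, with a median of 2.66, and on the log2 scale it had 1 lower and 1 higher. X promoter windows as a whole had median ranks of 52.0, 51.5, 53.6 and 53.5 early and 47.8, 44.8, 51.0 and 45.3 late among autosomal promoters, all late values being lower. Of these 1019 windows, 56 (5.5%) were lower and 26 (2.55%) higher at an unadjusted p under 0.05.

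Genes of pluripotency and of the germ layers gave no promoter that passed the test. At Pou5f1, which encodes the pluripotency factor OCT4, the ranks were 98.9, 91.8, 97.0 and 99.1 early and 77.1, 70.7, 76.4 and 88.6 late, so that all late values lay below all early ones (change -18.5, SE 9.5, adjusted p = 0.851). Its window (chr17:35504054-35506305) covers coding sequence over 9.1% and upstream sequence over 87.2%. Klf2, another factor of the naive state, was lower at day 6 in both arms (0.8 and 21.3) and at day 7 of Nons (31.6) but not at day 7 of Smarcc16 (92.4), against 79.0 to 96.4 early. Klf4 was higher late, at 85.7, 91.6, 97.6 and 99.9, against 75, 99.5, 17.0 and 83.7 (change 24.9, SE 12, adjusted p = 0.851). Nanog had ranks of 66.6, 67.7, 89.8 and 83.2 early and 4.8, 52.0, 61.9 and 84.8 late. Sox2, Zfp42 and Esrrb had changes of -12.9, -9.0 and 28.3 with overlap, and that of Sox2 was positive when libraries were centred. Of the 14 windows of the naive list, 1 (7.14%) was lower and 1 higher at an unadjusted p under 0.05, against 3.16% and 2.62% of all promoter windows. Without the day 7 libraries 4 (28.6%) were lower and 0 higher, against 3.7% and 2.46%. The median change of the list was -6.67, which turned to 1.02 percentage points when libraries were centred. The 8 windows of the primed list held none, with Fgf5 at 7.3, Otx2 at -19.7, Dnmt3a at 17.4 and Dnmt3b at -12 percentile points, all with overlap.

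At the window of Eomes, a T-box gene of mesendoderm and trophoblast, the early ranks were 13.2, 81.1, 84.4 and 95.3 and the late ranks 94.9, 98.5, 97.9 and 99.5. The late libraries were all near the top of the promoters. Among the early ones, day 4 of Nons was far below the others, which were also high, and day 5 of Smarcc16 lay within the late range. The stages thus overlapped (change 29.2, SE 11.2, limma unadjusted p = 0.00937, adjusted p = 0.851). Hand1 of mesoderm stood at 56.1, 15.8, 68.2 and 11.5 early and 74.3, 83.8, 87.0 and 79.2 late without overlap. These were 2 of 9 mesendoderm windows higher at an unadjusted p under 0.05 (22.2%, against 2.62% of all promoter windows), with none lower and a median change of -0.22. Without day 7 there were 0 in either direction. T, the Brachyury gene, had a change of -23.4 with overlap. Of 8 endoderm windows, 1 (12.5%) was higher, against 2.62% of all promoter windows. It was that of Afp, with a late minus early change of 35.4 (SE 16.4). When libraries were centred 2 were higher, and without day 7 or on the log2 scale 0 were. A positive sign was found at 7 of the 8, against 15390 of all 30707 promoter windows, with a median change of 20.4 percentile points. Sox17, Gata6 and Foxa2 had changes of 0.0, 22.4 and 25.9. The 6 neuroectoderm windows had none in either direction (Sox1 -13.7, Pax6 16.1), the 6 trophoblast windows had Eomes alone, and the 6 fibroblast windows had none. With 6 to 14 windows a list, 1 window is 7.14% to 16.7% of it.

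No promoter of a chromatin regulator passed the test. Of 27 windows of BAF subunit genes, 21 had a negative and 6 a positive change, with a median of -6.93 percentile points, and 1 was lower at an unadjusted p under 0.05 (3.7%, against 3.16% of all and 3.84% of protein-coding promoter windows). Without day 7 there were 3 (11.1%), with a median of -12.6, and on the log2 scale 0. The 1 window was that of Smarcd2, with ranks of 93.9, 85.3, 98.7 and 98.8 early and 79.7, 91.9, 56.2 and 18.9 late. Smarca4, the ATPase gene of the complex, and Smarcc1, the hairpin target, had changes of -6.9 and -8.3 with overlap, and that of Smarcc1 turned to 9.50 with days 4 and 6 alone. Of 27 Polycomb windows, 3 (11.1%) were lower and none higher, while on the log2 scale 2 (7.41%) were lower and 3 (11.1%) higher. Rybp, a subunit gene of variant Polycomb complexes, did not overlap between the stages, at 91.7, 84.9, 94.7 and 92.9 early and 54.1, 50.1, 63.0 and 42.6 late (change -38.6, SE 16, adjusted p = 0.851), and the others were Phf1 (-40.9) and Suz12 (-21.3). Of 20 windows of nucleosome remodeller genes, 4 (20%) were lower and none higher, namely Chd7, Chd8, Chd3 and Chd6, which encode helicases of the CHD family, with changes of -43.8, -42.5, -39.0 and -22.3. On the log2 scale 2 of the 20 were lower. The 9 windows of DNA methylation genes held none. Among gene families, 23 of 372 Zfp promoter windows (6.18%) were lower and 4 (1.08%) higher, with a median change of -5.08, and without day 7 these were 31 and 5. On the log2 scale the counts were 12 and 6. The sign of several list medians depended on the scale, since as log2 of percent plus 1 the medians of the naive, primed, Polycomb, X inactivation, remodeller and histone lists were positive, at 0.0614, 0.112, 0.14, 0.0158, 0.163 and 0.0882, against -0.0184 over all promoters. Of 50 histone gene windows, 5 (10%) were lower and none higher, but none on the log2 scale. Cytosolic ribosomal protein genes had 2 of 84 lower, keratin genes 1 of 52 in each direction, Hox genes 1 of 35 lower, olfactory receptor genes 15 lower and 20 higher of 1119, and vomeronasal receptor genes 11 lower and 10 higher of 314.

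Finally, the change from early to late was compared between the arms. The interaction of arm and stage was not significant for any of the 830230 windows, 30707 promoter windows or 2548 bins (limma, smallest adjusted p 1, 0.993 and 0.957). At an unadjusted p under 0.05 it was found for 4.39% of windows, 4.57% of promoter windows and 4.36% of bins. With 2 libraries for each arm and stage, a difference between the arms was not detectable, which does not show that the arms were alike. In the 13 called bins the stages did not overlap, so their direction within each arm was fixed by that and does not compare the arms. The X difference was -3.11 within Nons and -3.69 within Smarcc16. Correlations of bin ranks between libraries, over 2395 autosomal bins that are not independent, were 0.65 to 0.78 within the early stage, 0.62 to 0.77 within the late stage and 0.40 to 0.73 between the stages, with medians of 0.71, 0.69 and 0.62.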

How the data were processed

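NOMe-seq was performed on 9 libraries, 8 of which entered the tests. Reads had been trimmed (trim_galore) and mapped by the authors with bismark against mm10 in which FVB and CAST variants were masked, GpC positions were extracted with coverage2cytosine, and windows were quantitated in Seqmonk. Values were deposited as percent GpC methylation per window, both alleles merged. The deposited table and the study's methods give different numbers of read positions per window, and the methods describe an enrichment normalisation for plots, so the exact window definition and any such step behind these values are uncertain. Depth per window is not given in the sources used here, so no counting interval was made. Library medians differ, and no scaling between libraries was seen.

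Of 833294 windows, 833044 lay on chromosomes 1 to 19 and X, and 2814 of these without a value in all 8 libraries were left out. Windows were ranked within each library among autosomal windows, promoter windows or 1 Mb bins (means over at least 100 windows). A promoter window was one with a protein-coding or lncRNA 5′ end (GENCODE, GRCm38). GC content and sequences came from GRCm38.p6 and RefSeq. Stages were compared with limma 3.58.1 in R 4.3.3 (moderated with a trend, arm as a block, Benjamini-Hochberg at 0.05) and single values with an exact two-sided permutation of stage labels within arm. The R package data.table (version 1.17.8), Python 3.11.15, pandas 2.3.3 and numpy 2.4.6 were used. The fits were also run on simulated data. Their noise was drawn or shuffled independently for each feature, without the relation of the change to GC content. They therefore do not bear on the called bins. Named promoters were up to 10 in each direction by moderated t among those whose stages did not overlap, holding a protein-coding 5′ end and leaving out predicted genes. Bins were named by the same rule, all called bins being given, together with preset marker genes and list members by the size of t. The list genes Tbx3, Zic2, Lef1, Sox3, Krt8, Thy1, Phf19, Rnf12 and Cnbp2 had no window matched by symbol. The comparison, gene lists and tests were chosen with earlier results of these data known. Alternatives were centring on the autosomal median, log2 of percent plus 1, other filters, bins of 100 kb, a GC fit, subsets of days or arms, and leaving out each library. P-values measure the spread between these libraries only.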

Additional observations from a re-analysis of the deposited data

Results flagged for a closer look

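In 6 of 34 groups of 4 libraries tested, 1 library stood far from the other 3 by Dixon's 95% value for 4 samples (0.829). About 1 in 20 groups of independent, normally distributed values pass it. The flagged groups are percentile ranks of called bins from the same libraries, so that rate need not hold and the count shows no excess. All concern bins described above, and 3 concern day 5 of Nons. In the Lpp bin (chr16:24000001-25000000) that library had an early rank of 40.1, against 8.96 to 12.9 in the others. In the Rorb bin (chr19:19000001-20000000) it had 44.1, against 67.2 to 71, and in the bin of Uqcrb, Mterf3 and Ptdss1 (chr13:66000001-67000000) 94.3, against 98.8 to 99.7. In the bin without protein-coding 5′ ends at chr12:6000001-7000000, day 4 of Nons had an early rank of 51.0, against 28.6 to 32.1, and day 7 of Nons a late rank of 5.45, against 0.731 to 1.44. In the Rsad2 and Cmpk2 bin (chr12:26000001-27000000), day 4 of Smarcc16 had an early rank of 2.53, against 1.73 to 1.77. In each of these bins the early and late libraries still did not overlap.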

How the results depend on the processing

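The number of called bins, 13, depended on the scale and on the libraries. It was 77 (24 higher, 53 lower) with values centred on the autosomal median and 146 (19 higher, 127 lower) as log2 of percent plus 1, and both included all 13. It was 8 without the arm block. It was 0 with days 4 and 6 only, with Nons only, with Smarcc16 only, without both day 7 libraries, with 100 kb bins, after the GC fit and with windows at 0% or 100% left out. Leaving out 1 library gave 0 to 5 calls: 5 without day 5 of Nons, 3 without day 6 of Smarcc16, and 0 for each other library. With days 4 and 6 only, the adjusted p of the 13 bins was 0.0881 to 0.2 by limma. The promoter class difference turned to 0.0079 as a log2 ratio. Among promoters, none of which was called, Sox17 turned to 0.13 on the log2 scale and 2.29 with days 4 and 6, Sox2 to 5.90 when centred and 0.34 on the log2 scale, Smarcc1 to 0.0093 on the log2 scale and 9.50 with days 4 and 6, and Rlim to 2.46 with days 4 and 6. Causes were not tested. The X difference kept its direction in all alternatives, from -4.35 to -2.44 when 1 library was left out, but a p of 0.0556 is the smallest its test allows. Depth per window is unknown, which limits single windows most.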

Other observations

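The undifferentiated day 0 library, which belongs to neither arm, entered no test and has no replicate, gave these ranks for the called bins among its own autosomal bins. Of the bins that fell, those at chr12:6000001-7000000 (0.8), chr17:19000001-20000000 (5.9), chr19:19000001-20000000 (15.6) and chr3:43000001-44000000 (16.4) were low at day 0, and those at chr13:66000001-67000000 (89.5) and chr12:96000001-97000000 (76.5) were high. The X bins stood at 27.0 (chrX:127000001-128000000) and 48.4 (chrX:89000001-90000000). The bins that rose stood at 2.5 (chr12:26000001-27000000), 18.3 (chr1:91000001-92000000) and 25.4 (chr16:24000001-25000000), all in the lower part of the autosomal range.

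Among bins that did not pass the test, the bin at chr13:65000001-66000000, which adjoins the called Uqcrb bin and holds Zfp369, had a change of -58.4 (limma adjusted p = 0.0663). The bin at chr13:61000001-62000000, which holds placental cathepsin genes (Ctsj, Ctsq, Ctsr, Ctsm), had a change of -52.2 (adjusted p = 0.053). The bin at chr11:79000001-80000000, which holds Nf1 and the Polycomb gene Suz12, had a change of 31.2 (adjusted p = 0.075), while the promoter window of Suz12 itself had a change of -21.3 (adjusted p = 0.851).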
